A study of Mus musculus with 18 samples.

Results

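Ahsp, Slc4a1 and Alas2 are 3 genes of the red blood cell lineage, measured here in the hearts of young mice kept in hypoxia or in normal air. They were chosen by gene symbol from the authors' gene lists and joined to the table of array values, and they are 3 of the 2562 genes that could be named with values per sample. Each gene is represented by 1 probe set (called a probe), that is, 1 transcript cluster of the array. The probe of Slc4a1 is TC1100003833.mm.2, that of Alas2 is TC0X00001501.mm.2 and that of Ahsp is TSUnmapped00000051.mm.2. The RefSeq gene table places Slc4a1 on chromosome 11 and Alas2 on chromosome X.

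Ahsp encodes a chaperone that holds free alpha-globin soluble until it joins beta-globin. Slc4a1 encodes band 3, the anion exchanger that swaps chloride for bicarbonate across the red cell membrane and anchors the spectrin skeleton below it. Alas2 encodes the erythroid form of 5-aminolevulinate synthase, which catalyses the first and rate-limiting step of haem synthesis. Erythroblasts switch these genes on late in their maturation, and reticulocytes, the young red cells that still hold RNA, carry the transcripts into the blood. Low oxygen is known to raise erythropoietin, the hormone that drives red cell production. The heart is not a blood-forming organ, but it holds blood.

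The 18 samples of mouse heart fell into 4 groups: 5 at postnatal day 8 in hypoxia, with oxygen at 11% (hypoxia P8, samples 4 to 8), 4 at P8 in normoxia (samples 13, 22, 23 and 24), 5 at P30 in hypoxia (samples 1 to 5) and 4 at P30 in normoxia (samples 2 to 5). The labels give no strain, sex or genotype. Neither do the labels tell whether every sample came from an animal of its own, so a p-value here reflects only the spread among these samples, nor whether P30 mice were hypoxic all along. By the title, the study asked whether chronic hypoxia around birth delays maturation of the heart, as a model of cyanotic congenital heart disease. Total RNA was hybridised to arrays, only from samples above a set RNA integrity, and values are the authors' log2 signals. A log2 difference of 1 is a doubling of the signal. In bulk tissue, fewer cells of a type and less RNA per cell cannot be told apart, and no label tells whether the hearts were rinsed of blood.

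The arrays' median signal lay between 7.38 and 8.07 log2 units. It was 7.87 to 8.07 in hypoxia P8 samples and 7.49 to 7.69 in normoxia P8 samples. The 4704 probes with values are a selection, 21.189% of the array, in each of which the 4 group means span at least 0.46, so the shares below describe selected probes. The 6 of 18 cardiomyocyte markers with values were bright in every group, with sample medians of 14.475 to 16.595 log2 units over all 18 samples. Of 10 haemoglobin chain genes none had values per sample, and 0 of 5 sex-linked genes did. The sex of the samples, which could bear on X-linked Alas2, was therefore not tested.

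The promoter of Alas2 is shown because GATA1, the main transcription factor of the erythroid lineage, is known to act through GATA motifs. The sequence below is the RefSeq promoter of Alas2 (GRCm38.p6, chrX:150547167-150547416, plus strand), the 250 bases before the gene's start, and the capitals mark its only GATA motif.
Alas2 promoter: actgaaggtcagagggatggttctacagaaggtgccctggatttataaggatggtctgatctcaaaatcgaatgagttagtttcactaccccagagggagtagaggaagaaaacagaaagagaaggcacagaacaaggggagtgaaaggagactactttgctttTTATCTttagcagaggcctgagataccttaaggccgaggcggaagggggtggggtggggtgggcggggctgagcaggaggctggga
The motifs searched on both strands were, for GATA, the letters AGATAA, or the letters AGATAG, or the letters TGATAA, or the letters TGATAG. For CACCC, the type of site bound by the erythroid factor KLF1, they were CCACACCC, or else CCGCACCC, or else CCACGCCC. The promoter holds 1 match, so no motifs overlap. The capitals read AGATAA on the minus strand and stand at positions -86 to -81 relative to the start. A GATA motif occurred in 8718 of 32851 promoters of the same length (26.538%). None of the CACCC forms searched was in this window, and 2998 of the 32851 promoters held one (9.126%). The shorter letters CACCC do occur on the minus strand of the printed sequence, in its stretch of g and t near the end. Other forms of the site were not searched. The result therefore does not tell whether the promoter lacks a site of the type bound by KLF1.

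At P8, all 3 genes had higher mean signals in hypoxic hearts, and Ahsp and Slc4a1 passed the test. Ahsp rose 11.5-fold and Slc4a1 4.26-fold. The Alas2 signal was 4.51-fold higher, a difference that did not pass. Of all 4704 probes, 20.7% passed in this comparison, 15.2% higher in hypoxia and 5.57% lower, given beside the count of 2 in 3. Shares of all probes, here and below, are not a like background for the 3 genes. All 3 were named through the authors' list for P8, which holds probes with an unadjusted p under 0.05. Of the 4704 probes, 2031 have no symbol. By size of difference, Ahsp ranked 39, Alas2 130 and Slc4a1 153 of the 4704 probes, counted from the highest.

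Ahsp, the alpha-globin chaperone, had 7.15, 8.13, 9.49, 9.16 and 8.10 log2 units in hypoxia P8 samples 4, 5, 6, 7 and 8, against 4.62, 4.09, 4.51 and 6.31 in normoxia P8 samples 13, 22, 23 and 24. The groups did not overlap, and sample 24 was the highest normoxic one, as it was for all 3 genes. The means were 8.41 ± 0.93 in hypoxia (SD, n = 5) and 4.88 ± 0.98 in normoxia (SD, n = 4), a difference of 3.52 (SE 0.44, 95% interval 2.60 to 4.45, limma adjusted p = 0.000116). In normoxia 3 of the 4 values lay below 5.48, the level under which the dimmest 25% of all values fell, so the fold is read against a dim baseline. Leaving out any 1 sample gave differences of 3.25 to 4.00, all past the threshold.

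Slc4a1, band 3, had 9.18, 9.43, 10.11, 10.30 and 10.17 log2 units in hypoxia P8 samples 4 to 8, against 7.90, 6.41, 7.93 and 8.75 in normoxia P8 samples 13, 22, 23 and 24. Every hypoxic value was above every normoxic one, with the lowest hypoxic sample, 4, nearest to sample 24. The means were 9.84 ± 0.50 in hypoxia (SD, n = 5) and 7.75 ± 0.97 in normoxia (SD, n = 4), and the difference was 2.09 (SE 0.37, 95% interval 1.31 to 2.87, limma adjusted p = 0.00248). Without 1 sample at a time it was 1.64 to 2.42 and always past the threshold. Of all probes, 25.3% had groups that did not overlap at P8, 16.4% with hypoxia higher.

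Alas2, the haem synthesis enzyme, had 12.07, 11.59, 13.39, 13.81 and 12.81 log2 units in hypoxia P8 samples 4 to 8, against 8.49, 9.81, 10.61 and 13.34 in normoxia P8 samples 13, 22, 23 and 24. Samples 13, 22 and 23 lay below all hypoxic ones, while sample 24 lay inside the hypoxic range. The means were 12.73 ± 0.91 in hypoxia (SD, n = 5) and 10.56 ± 2.05 in normoxia (SD, n = 4). The difference was 2.17 (SE 0.75, 95% interval 0.60 to 3.74, limma adjusted p = 0.131). Without sample 24 it was 3.10 (SE 0.65, limma adjusted p = 0.0129), and without any other single sample it did not pass.

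**Figure D1:**
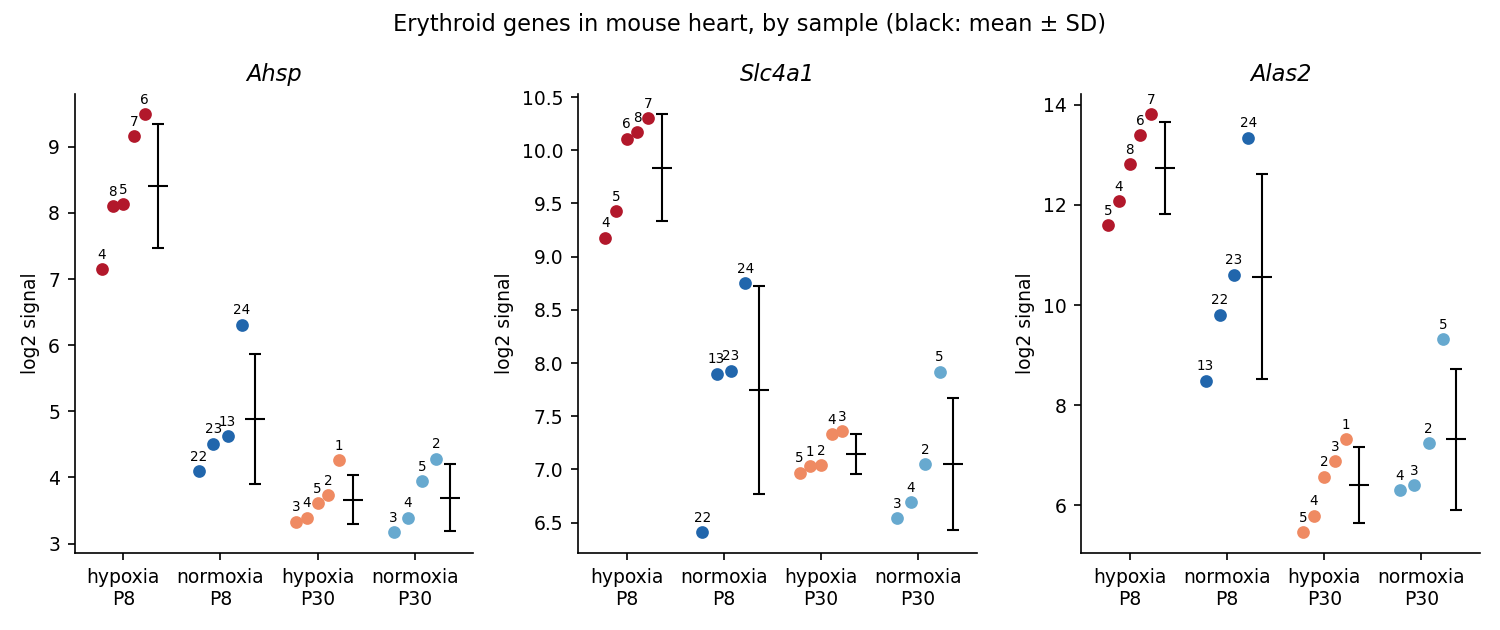
Log2 signal (vertical axis) of Ahsp, Slc4a1 and Alas2 in each sample (points) of the 4 groups, hypoxia left of normoxia at each age, with the mean and SD. At P8, hypoxic Ahsp values of 7.15 to 9.49 lie above normoxic values of 4.09 to 6.31, while the highest normoxic Alas2 value, 13.34, lies within the hypoxic range of 11.59 to 13.81.

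In the authors' deposited table for P8, which reports its own averages, the fold was 15.42 for Ahsp, 4.39 for Slc4a1 and 5.93 for Alas2. Its q-values were 0.0021, 0.0138 and 0.1891 in the same order. The averages in the authors' deposited table (for Ahsp 8.38 in hypoxia and 4.43 in normoxia) are not the arithmetic means of the samples, and no source used here tells how they were made.

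The size of the P8 difference was compared between the genes within each sample, so that a shift common to a whole array cancels. The signal of Ahsp minus that of Slc4a1 was -1.43 ± 0.62 in hypoxia (SD, n = 5) and -2.87 ± 0.57 in normoxia (SD, n = 4), with no overlap (-2.07 to -0.62 in hypoxia, -3.42 to -2.32 in normoxia). The difference of 1.43 had a two-sided exact permutation p of 0.0159, the smallest that 5 against 4 samples can give, and 0.0952 after Benjamini-Hochberg adjustment over the 6 gene pairs and ages. That is the smallest adjusted value that 1 pair alone can reach here, so the threshold was out of its reach. Ahsp minus Alas2 differed by 1.35 between the oxygen groups (exact permutation p = 0.0952, adjusted 0.254). Alas2 minus Slc4a1 differed by 0.08 (exact permutation p = 0.921, adjusted 0.921), with 2.90 ± 0.53 in hypoxia (SD, n = 5) and 2.82 ± 1.68 in normoxia (SD, n = 4). Samples 13 and 24 of normoxia P8 were the lowest and the highest in Alas2.

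At P30, none of the 3 genes passed the test between hypoxic and normoxic hearts. Ahsp had 4.26, 3.73, 3.33, 3.39 and 3.61 log2 units in hypoxia P30 samples 1 to 5, against 4.28, 3.17, 3.39 and 3.94 in normoxia P30 samples 2 to 5, all below the dim level of 5.48. Slc4a1 had 7.03, 7.04, 7.36, 7.33 and 6.97 in hypoxia P30 samples 1 to 5, against 7.05, 6.54, 6.69 and 7.92 in normoxia P30 samples 2 to 5. Alas2 had 7.32, 6.57, 6.88, 5.79 and 5.46 in hypoxia P30 samples 1 to 5, against 7.24, 6.40, 6.30 and 9.32 in normoxia P30 samples 2 to 5. The groups overlapped for every gene, and sample 5 was the highest normoxic sample for Slc4a1 and Alas2.

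Ahsp differed by -0.03 at P30 (SE 0.44, 95% interval -0.96 to 0.89), Slc4a1 by 0.10 (SE 0.37, 95% interval -0.68 to 0.87) and Alas2 by -0.91 (SE 0.75, 95% interval -2.48 to 0.66), each with a limma adjusted p of 1. Each interval holds 0, and its span gives the differences that are compatible with these samples. The intervals are not adjusted for the number of tests. At P30, 0% of the 4704 probes passed limma's test (0 higher and 0 lower), though 656 had an unadjusted p under 0.05, and 5.38% had groups that did not overlap. None of the 3 genes is in the authors' deposited list for P30. Within samples, no pair of the genes passed between the oxygen groups at P30: Ahsp minus Slc4a1 by -0.13, Ahsp minus Alas2 by 0.88 and Alas2 minus Slc4a1 by -1.01, with exact permutation p of 0.746, 0.238 and 0.127, adjusted to 0.895, 0.357 and 0.254.

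The hypoxia difference was larger at P8 than at P30 for Ahsp by the test of the difference itself. The P8 difference exceeded that at P30 by 3.55 for Ahsp (SE 0.63, 95% interval 2.25 to 4.86, limma adjusted p = 0.00843). For Slc4a1 the excess was 1.99 (SE 0.53, 95% interval 0.89 to 3.10, limma adjusted p = 0.0673) and for Alas2 it was 3.08 (SE 1.07, 95% interval 0.86 to 5.31, limma adjusted p = 0.19). Both missed the threshold with all samples and passed it without normoxia P8 sample 24, at 2.33 for Slc4a1 (limma adjusted p = 0.0343) and 4.01 for Alas2 (limma adjusted p = 0.0395). Without any other single sample neither passed. Over all probes, 5.17% passed in this test, 4.34% with the larger value at P8 and 0.829% with the smaller. All 3 genes were named through the authors' list for P8, and none is in that for P30. A larger difference at P8 was therefore favoured by the way the genes were named. Every P30 value of Ahsp lay below the dim level of 5.48, so its P30 difference is one between dim signals.

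**Figure D2:**
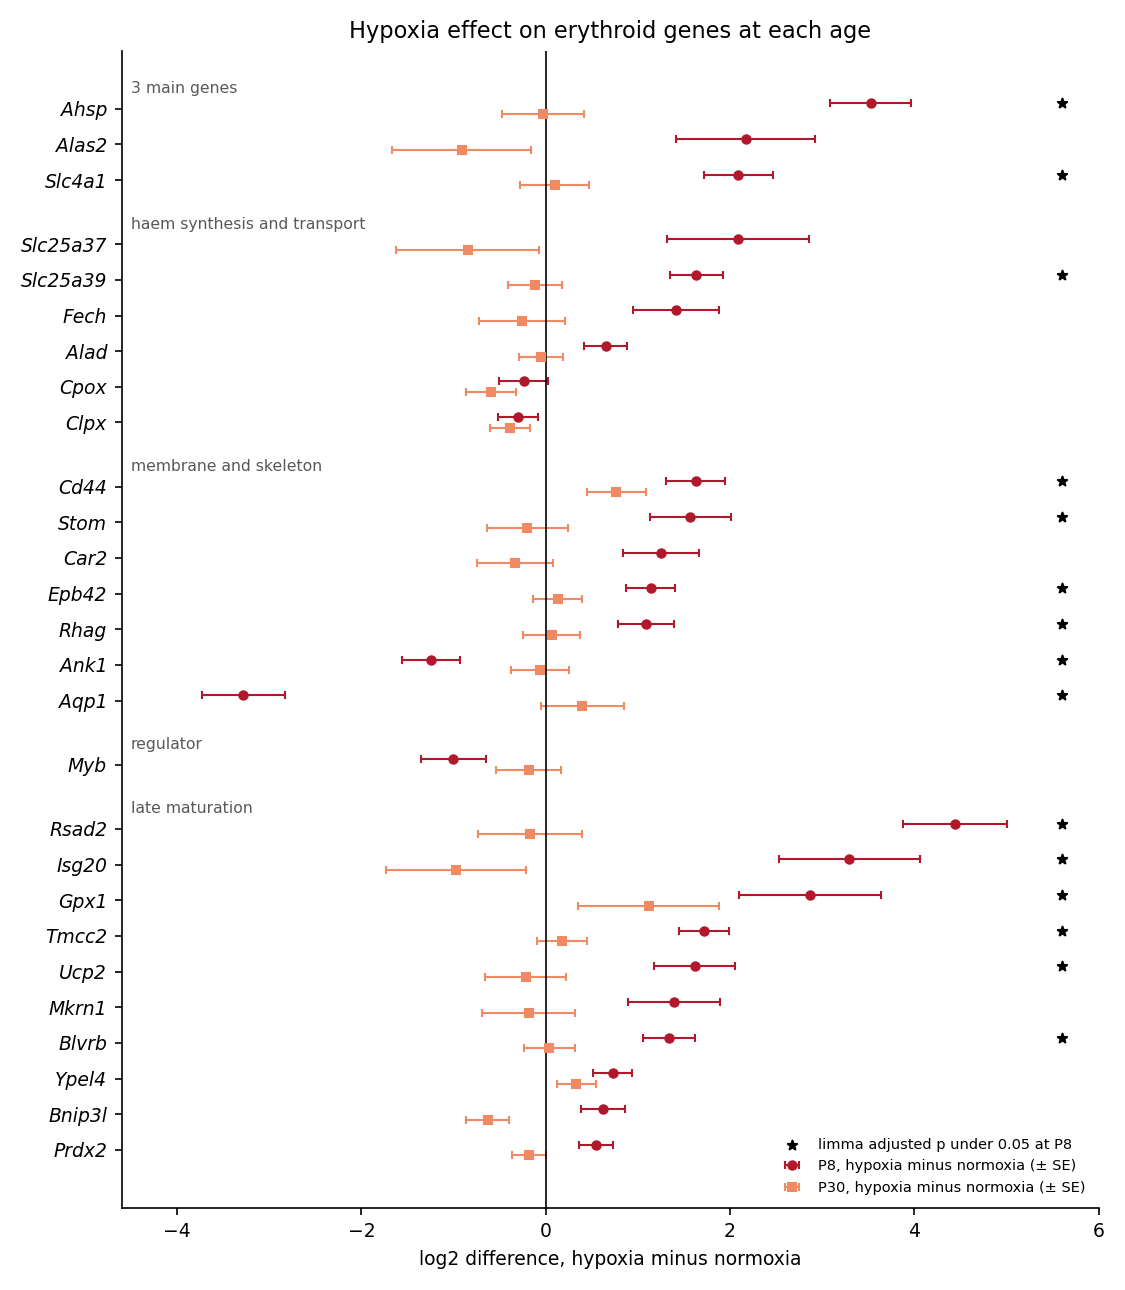
Log2 difference, hypoxia minus normoxia, at P8 and at P30 for the 3 genes and 24 genes of the red cell lists, with bars of 1 SE either way, colour for the age and a star where the limma adjusted p at P8 is under 0.05. Ahsp at 3.52 and Slc4a1 at 2.09 carry a star, Alas2 at 2.17 does not, and at P30 they stand at -0.03, 0.10 and -0.91.

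All 3 genes were lower at P30 than at P8 in hypoxia. Ahsp fell by 4.74 log2 units (26.8-fold lower, SE 0.42, limma adjusted p = 1.27e-07), with 3.66 ± 0.37 at P30 and 8.41 ± 0.93 at P8 (SD, n = 5 each). All 5 P30 values of Ahsp lay below the dim level of 5.48, as did 1 of 5 of Alas2, so these folds too are read against dim signals. Slc4a1 fell by 2.69 (6.46-fold lower, SE 0.35, limma adjusted p = 1.2e-05), with 7.15 ± 0.18 at P30 and 9.84 ± 0.50 at P8 (SD, n = 5 each). Alas2 fell by 6.33 (80.4-fold lower, SE 0.71, limma adjusted p = 2.07e-06), with 6.40 ± 0.77 at P30 and 12.73 ± 0.91 at P8 (SD, n = 5 each). None of the 3 overlapped between the ages. This comparison passed in 70.2% of all probes, 43.9% lower at P30, and 35.3% had lower, non-overlapping P30 values.

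In normoxia only Alas2 passed between the ages. It fell by 3.25 at P30 (9.50-fold lower, SE 0.79, 95% interval -4.91 to -1.59, limma adjusted p = 0.0137), with 7.32 ± 1.40 at P30 and 10.56 ± 2.05 at P8 (SD, n = 4 each). The groups overlapped, since sample 5 at P30 had 9.32 and sample 13 at P8 had 8.49, and without normoxia P30 sample 3 or 4 the call was lost (-2.94 with limma adjusted p = 0.0559, and -2.91 with limma adjusted p = 0.0515). Ahsp differed by -1.19 (SE 0.47, limma adjusted p = 0.174) and Slc4a1 by -0.70 (SE 0.39, limma adjusted p = 0.63). In normoxia 34.6% of all probes passed between the ages, 16.3% lower at P30.

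In order of level, Ahsp, Slc4a1 and Alas2 were each highest in hypoxia P8 and next in normoxia P8. For Ahsp and Alas2 the order then ran normoxia P30, hypoxia P30, and for Slc4a1 hypoxia P30, normoxia P30, and in each gene those lower 2 groups did not differ beyond their spread. Normoxia P8 did not differ from normoxia P30 beyond the test's threshold for Ahsp and Slc4a1, nor hypoxia P8 from normoxia P8 for Alas2.

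Single samples were high or low in several of the genes. Sample 24 was the highest of normoxia P8 in 3 of 3 genes, and it was the highest in 13 of 26 genes of the other red cell lists and in 21.77% of all probes. Sample 5 was the highest of normoxia P30 in 2 of 3 genes, in 12 of 26 list genes (46.15%) and in 30.23% of all probes. Hypoxia P8 samples 4 and 5 were both below samples 6, 7 and 8 in 2 of 3 genes, Slc4a1 and Alas2, in 10 of 26 list genes and in 22.49% of all probes. After each group mean was subtracted, Pearson's r over the 18 samples was 0.68 between Ahsp and Slc4a1, 0.70 between Ahsp and Alas2 and 0.69 between Alas2 and Slc4a1. These correlations are descriptions, and the points share the arrays and their scaling.

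**Figure D3:**
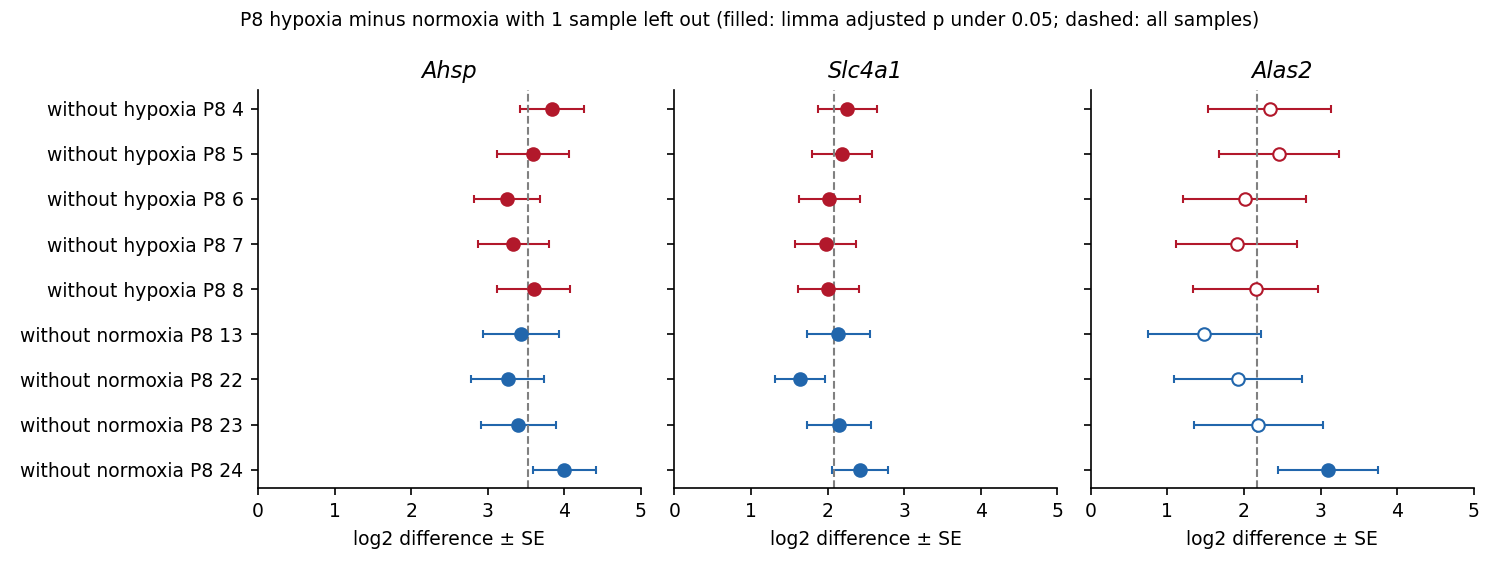
Log2 difference, hypoxia minus normoxia, at P8 for Ahsp, Slc4a1 and Alas2 when each P8 sample (rows) is left out, with bars of 1 SE either way, a dashed line for all samples and filled points where the limma adjusted p is under 0.05. The Alas2 point is filled only without normoxia P8 sample 24, at 3.10, against 2.17 with all samples.

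Other genes of the red cell were read beside the 3 in lists for haem synthesis, the membrane and its skeleton, regulators and iron uptake, and late maturation. Of the 94 genes of these lists and the haemoglobin list, 26 had values per sample. A gene has a name here only through the authors' lists. These hold probes with an unadjusted p of at most 0.05 between hypoxia and normoxia at P8 or P30. The counts therefore describe those 26 and not the lists. At P8, 13 were higher and 2 lower past the threshold, beside 15.2% of all 4704 probes higher and 5.57% lower. The median difference was 1.36, beside 0.18 for all probes. All probes include 2031 without a symbol, so their shares and median are not a like background for genes named through those lists. At P30 0 passed in either direction, and the median was -0.15. A further 7 genes of the lists at P8 and 5 at P30 appear in the authors' deposited tables without values per sample here. In the authors' deposited table for P8 (folds negative where hypoxia is lower), the folds included 1.94 for Lyl1, 1.72 for Eif2ak1, 1.63 for Add2, 1.43 for Car1, -1.15 for Xpo7 and -1.84 for Glrx5, with q-values of 0.1473 to 0.2251 for these. In the authors' deposited table for P30 they were 2.79 for Tfrc, the transferrin receptor, 1.54 for Klf1 and -1.65 for Gata1, the master regulators of the lineage, 1.39 for Glrx5 and -2.68 for Cat, catalase, with q-values of 0.6549 to 0.7275. The deposited averages of Klf1 and Gata1 at P30 all lay below the dim level of 5.48. So did those of Lyl1, Add2 and Car1 at P8, so the folds of these genes are between dim signals.

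Of haem synthesis and mitochondrial transport, 6 of 18 genes had values and 1 passed at P8, higher in hypoxia. Of all probes 15.2% passed as higher, so a count of 1 in 6 is near that share. Slc25a39, a mitochondrial carrier needed to import glutathione, rose by 1.64 (SE 0.29, limma adjusted p = 0.00248), with 12.41, 12.56, 13.72, 13.67 and 13.02 log2 units in hypoxia P8 samples 4 to 8, against 10.81, 11.87, 11.52 and 11.56 in normoxia P8 samples 13, 22, 23 and 24. Fech, ferrochelatase, which inserts iron in the last step of haem synthesis, had 11.78, 12.35, 12.76, 13.82 and 12.77 in hypoxia, against 10.29, 10.92, 10.77 and 13.15 in normoxia, a difference of 1.41 (SE 0.46, limma adjusted p = 0.101). Slc25a37, mitoferrin-1, which imports iron for haem, had 8.57, 8.99, 11.41, 11.11 and 11.43 in hypoxia, against 6.75, 7.10, 8.19 and 10.83 in normoxia, a difference of 2.08 (SE 0.77, limma adjusted p = 0.173). In both genes, as in Alas2, sample 24 lay in the hypoxic range. Without sample 24 both passed, Fech at 2.04 (limma adjusted p = 0.00475) and Slc25a37 at 2.96 (limma adjusted p = 0.0272). Without any other single sample neither passed. With single samples left out in turn, the difference was 1.08 to 2.04 for Fech and 1.60 to 2.96 for Slc25a37. Alad differed by 0.65, Cpox by -0.24 and Clpx by -0.30, none past the threshold.

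Of the membrane and skeleton genes, 8 of 25 had values, and 5 were higher and 2 lower past the threshold at P8. These counts stand beside 15.2% of all probes higher and 5.57% lower, which are not a like background. Epb42, protein 4.2, which links band 3 to ankyrin, rose by 1.14 (SE 0.27, limma adjusted p = 0.0172), but all its values lay below 5.48. Rhag, the Rh-associated glycoprotein, rose by 1.09 (SE 0.31, limma adjusted p = 0.0485), a call that 4 of 25 alternatives kept.

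Aqp1 and Ank1 were the membrane genes that were lower. Aqp1, the water channel of red cells and also of endothelium, had 7.29, 6.41, 9.19, 8.64 and 7.55 in hypoxia P8 samples 4 to 8, against 9.92, 11.72, 11.54 and 11.20 in normoxia P8 samples 13, 22, 23 and 24, a fall by 3.28 (SE 0.45, limma adjusted p = 0.000271). Ank1, ankyrin 1, which ties band 3 to spectrin, fell by 1.25 (SE 0.32, limma adjusted p = 0.0271), at 13.11 to 14.81 log2 units in hypoxia and 14.88 to 15.37 in normoxia. At P30 Ank1 stood at 14.87 to 15.79 in hypoxia and 14.92 to 16.25 in normoxia. Unlike the 3 genes, its mean was not lower at P30 than at P8, and which cells gave its signal was not tested. Cd44, a hyaluronan receptor of many cell types, rose by 1.63 (SE 0.32, limma adjusted p = 0.00561), and Stom, stomatin, by 1.57 (SE 0.44, limma adjusted p = 0.0459), a call that 8 of 26 alternatives kept. Car2, carbonic anhydrase 2, differed by 1.25 (SE 0.41, limma adjusted p = 0.102).

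Of the regulators and iron uptake genes, 1 of 23, Myb, had values, with 4.24 ± 0.28 log2 units in hypoxia P8 (SD, n = 5) and 5.24 ± 1.12 in normoxia P8 (SD, n = 4, SE of the difference 0.36, limma adjusted p = 0.143). Of the late maturation genes, 11 of 18 had values, and 7 were higher and 0 lower past the threshold. Here too the shares of all probes, 15.2% higher and 5.57% lower, are not a like background. Tmcc2 rose by 1.72 (SE 0.27), Blvrb, biliverdin reductase B, by 1.34 (SE 0.28), Ucp2, a carrier of the inner mitochondrial membrane, by 1.62 (SE 0.44), and Gpx1, glutathione peroxidase 1, by 2.87 (SE 0.77). Their limma adjusted p were 0.00082, 0.00769, 0.0376 and 0.0364 in that order. Mkrn1, an E3 ubiquitin ligase, differed by 1.39 (SE 0.50, limma adjusted p = 0.153), and by 2.01 without sample 24 (limma adjusted p = 0.0142). Without any other single sample it did not pass, and its lowest difference with 1 sample left out was 1.06. Bnip3l, which marks mitochondria for removal, differed by 0.63, Prdx2, a peroxide-reducing enzyme, by 0.55 and Ypel4 by 0.73, none past the threshold.

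Rsad2 and Isg20, of the late genes, are also known to be induced by interferon, and the late genes Bnip3l and Ucp2 also have other regulators. Rsad2, viperin, rose by 4.44 (SE 0.56, limma adjusted p = 0.000128), with 12.88, 13.06, 9.82, 9.90 and 11.25 in hypoxia P8 samples 4 to 8, against 6.32, 6.26, 7.63 and 7.56 in normoxia P8 samples 13, 22, 23 and 24. It was highest in samples 4 and 5, where Slc4a1 and Alas2 were lower than in samples 6 to 8. Isg20, an exonuclease, rose by 3.30 (SE 0.76, limma adjusted p = 0.0156), at 10.71, 10.76, 11.83, 11.22 and 11.62 in hypoxia P8 samples 4 to 8, against 5.90, 7.30, 7.25 and 11.28 in normoxia P8 samples 13, 22, 23 and 24. Here samples 4 and 5 were the lowest hypoxic ones, and sample 24 lay within the hypoxic range.

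Of the 13 list genes called higher at P8, 6 kept the call under every alternative run, among them Slc25a39, Cd44, Tmcc2 and Rsad2, and of the 2 called lower 1 did, Aqp1. The call of Gpx1 held under 12 of 26 alternatives, that of Ucp2 under 17, of Ank1 under 19, of Isg20 under 22 and of Blvrb under 24, and that of Epb42 under 21 of 25.

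**Figure D4:**
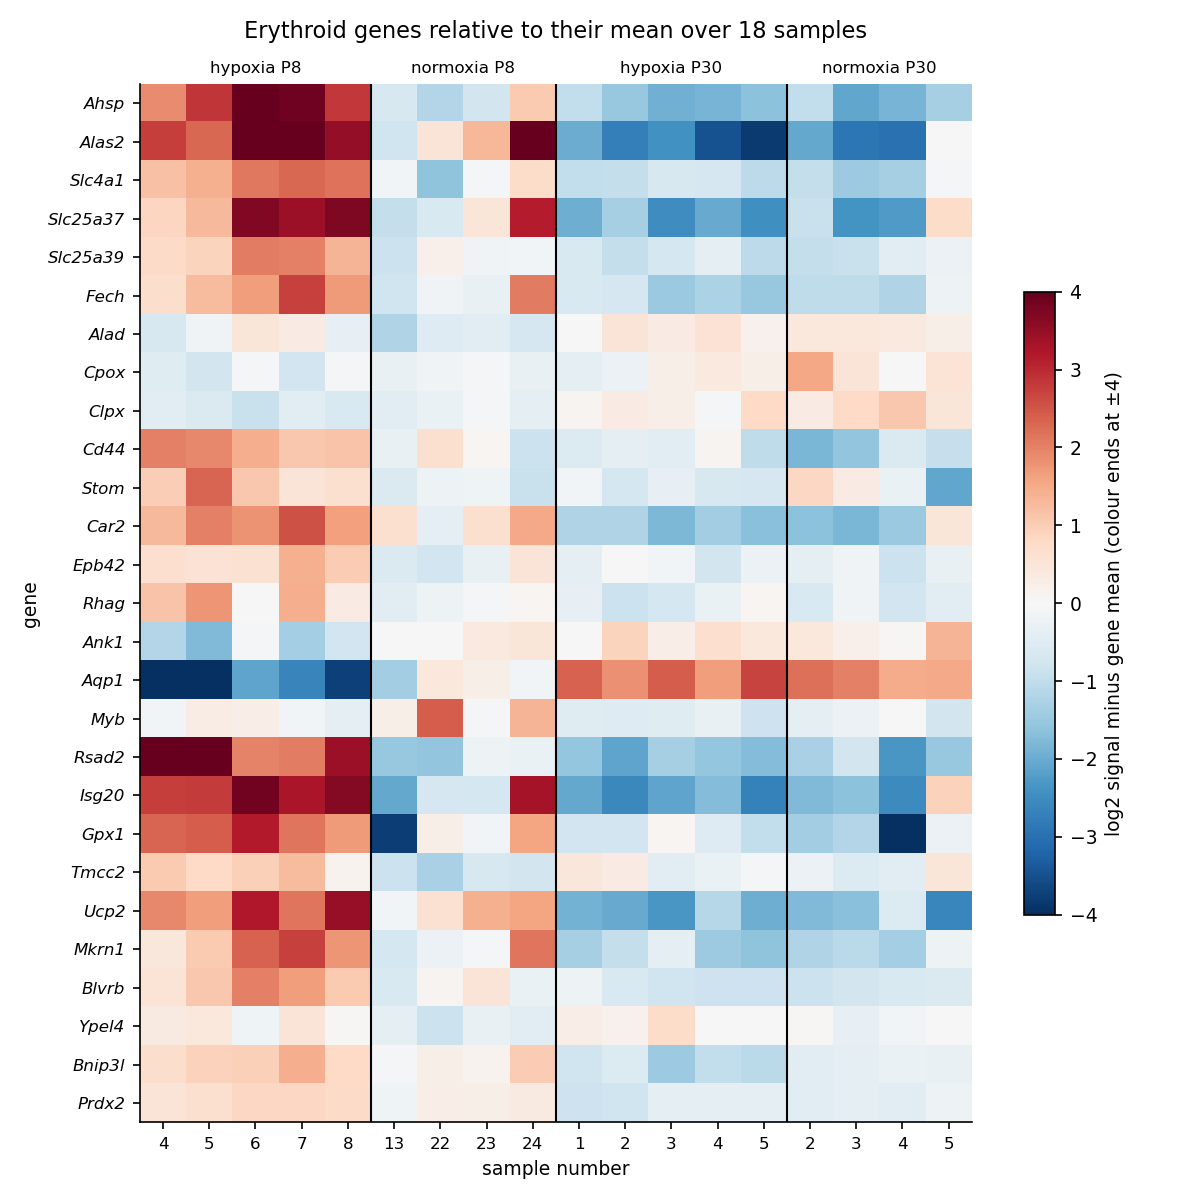
Log2 signal minus the gene's mean over 18 samples (colour, ending at 4 units either way) for Ahsp, Slc4a1 and Alas2 and 24 other list genes (rows) in each sample (columns), hypoxia left of normoxia at each age. Sample 24 of normoxia P8 has the colours of the hypoxia P8 samples in Alas2 (13.34 log2 units) and Slc25a37 (10.83).

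Between the ages in hypoxia, 19 of the 26 list genes were lower and 3 higher at P30 than at P8 past the threshold, beside 43.9% of all probes lower and 26.3% higher. By sign alone 20 were lower and 5 higher, and the median difference was -1.93. Slc25a37 fell by 4.65 (SE 0.73, limma adjusted p = 8.98e-05). Fech fell by 2.73 (SE 0.44, limma adjusted p = 0.000117) and Isg20 fell by 5.50 (SE 0.72, limma adjusted p = 1.17e-05). Aqp1 rose by 5.68 (SE 0.43, limma adjusted p = 1.57e-08), Ank1 by 1.48 (SE 0.30, limma adjusted p = 0.00119) and Clpx, a mitochondrial unfoldase, by 0.87 (SE 0.20, limma adjusted p = 0.004). In normoxia, 3 were lower and 3 higher past the threshold, beside 16.3% and 18.3% of all probes, so these counts do not stand above the background. By sign alone 18 were lower and 8 higher at P30, with a median of -0.60. Ucp2 fell by 2.52, Car2 fell by 1.73 and Myb fell by 1.32, while Aqp1 rose by 2.00, Alad, which catalyses the second step of haem synthesis, by 1.09 and Clpx by 0.96.

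Among the 6 genes whose signals were most like the mean of Ahsp, Slc4a1 and Alas2, each centred on its own mean, were Cd24a (Pearson's r 0.99 over 18 samples), Fech (0.96), Isg20 (0.96), Slc25a37 (0.96) and Mkrn1 (0.96). Among the 3 genes themselves r was 0.95 between Ahsp and Slc4a1, 0.89 between Ahsp and Alas2 and 0.88 between Alas2 and Slc4a1. With group means removed, the 6 most alike included Slc25a37 (0.93), Cd24a (0.91), Ube2o (0.90), Mkrn1 (0.90) and Fech (0.88). Cd24a is a surface glycoprotein of erythroblasts and leukocytes, and Ube2o is a ubiquitin-conjugating enzyme known to act in reticulocytes. Their P8 differences were 2.03 and 1.04. These r values carry no test, since the genes were picked for their likeness on the same arrays.

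Markers of other blood cells and of dividing cells also differed between the oxygen groups at P8. The counts here are of genes past the threshold, given beside 15.2% of all probes higher and 5.57% lower. Like the red cell list genes, these genes were named through the authors' lists, so those shares are not a like background. Of the neutrophil genes with values, 3 of 4 were higher, with sample medians of 4.685 to 6.86 in hypoxia and 3.37 to 4.23 in normoxia. Of the macrophage genes, 5 of 8 were higher, with sample medians of 5.95 to 7.575 in hypoxia and 5.08 to 5.76 in normoxia. Of the platelet genes, 1 of 2 was higher, with 5.585 to 6.43 in hypoxia and 4.325 to 5.365 in normoxia. Of the lymphocyte genes, 0 of 2 were higher and 1 was lower, with 3.045 to 4.485 in hypoxia and 4.005 to 5.12 in normoxia. All the lymphocyte medians, and all the normoxic neutrophil and platelet medians, lay below the dim level of 5.48. These 4 lists held 15, 18, 13 and 14 genes in all.

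Of the cell cycle genes 21 of 21 were higher by sign and 15 passed, with sample medians of 7.84 to 8.64 in hypoxia and 6.17 to 7.74 in normoxia. Of the interferon-induced genes 14 of 14 passed, all higher, with 6.57 to 13.65 in hypoxia and 4.06 to 5.55 in normoxia. HIF targets, the genes of the cell's response to low oxygen, were higher by sign in 11 of 12 and 9 passed, with 10.645 to 11.44 in hypoxia and 8.725 to 9.265 in normoxia. Cardiomyocyte genes were higher by sign in 3 and lower in 3 of 6, of which 1 and 3 passed, with 14.685 to 16.595 in hypoxia and 14.475 to 15.6 in normoxia. Sample 24, the highest of the 4 normoxia P8 samples for the 3 genes, was also their highest for the neutrophil median (4.23), the lymphocyte median (5.12) and the cardiomyocyte median (15.6), and their lowest for HIF targets (8.725). Its medians were 5.485 for macrophage, 4.36 for platelet, 6.25 for cell cycle and 4.97 for interferon-induced genes, neither the highest nor the lowest of the 4. The part of these other cells and programmes in the result was not tested.

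The leading genes of those lists at P8 were S100a8 (2.19), Ngp (1.96) and Lcn2 (1.67) of neutrophils, Cd68 (1.68), Lyve1 (2.17) and Itgam (1.60) of macrophages, Itgb3 (1.60) and Ppbp (1.17) of platelets, and Rag2 (-0.86) and Cd8a (-1.21) of lymphocytes, given as log2 differences, hypoxia minus normoxia. Of these, Ppbp and Cd8a did not pass. Those of the other lists, all past the threshold, were Ube2c (3.19), Ccnb1 (2.56) and Rrm2 (2.92) of the cell cycle, Oasl2 (4.47), Tgtp2 (9.10) and Ifi44 (5.60) of the interferon-induced genes, Slc2a1 (2.91), Pfkp (3.15) and Slc16a3 (3.22) of the HIF targets, and Tnni1 (3.66), Ckmt2 (-2.08) and Ryr2 (-1.62) of cardiomyocytes. Without hypoxia P8 samples 4 and 5, in which interferon-induced genes were highest (sample medians of 12.745 and 13.65, against 6.57 to 9.695 in samples 6 to 8), the P8 difference was 4.03 for Ahsp, 2.45 for Slc4a1 and 2.77 for Alas2. Ahsp and Slc4a1 passed and Alas2 did not (limma adjusted p = 0.0721).

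The median P8 difference of all probes was 0.18 as deposited, -0.08 after quantile normalization and -0.185 after centring each array, and the share of calls that were higher in hypoxia was 73.2%, 38.6% and 28% in turn. Relative to the deposited median, Ahsp stood at 3.34, Slc4a1 at 1.91 and Alas2 at 1.99. The P8 difference of Ahsp was 3.17 after quantile normalization and 3.16 after centring, that of Slc4a1 was 1.78 and 1.72, and that of Alas2 was 1.85 and 1.80, so none changed direction.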

How the data were processed

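The authors deposited log2 signals per probe and gene lists for each age. Per the submitters' processing notes the values were made with Affymetrix Expression Console, with no version or genome build named. The authors' deposited lists also hold a fold (a signed score), a p-value and a q-value whose test no source used here describes. The lists name a probe only where an unadjusted p was at most 0.05. Of the probes with values, 2568 had 1 symbol, 105 had several and were left unnamed, and 2031 had none here.

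Differences were fitted with limma 3.58.1 in R 4.3.3 (lmFit, contrasts.fit, eBayes) on 4704 probes in the 4 groups together, with no block (14 residual degrees of freedom, 5.98 prior ones). Because the table is a selection, p-values were adjusted by Benjamini and Hochberg's method over 22200 tests, a number inferred from the p, q and rank of the authors' lists. The threshold was an adjusted p of 0.05. Within-sample differences between genes were tested by exact permutation with scipy 1.17.1. The fit was tested on simulated data. The number of arrays limits the precision.

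The genes and lists were chosen with earlier results of these data known. The 3 genes are named throughout, as are all list genes with 1 symbol and values, the 3 leading genes of each other list, and the 6 genes most alike, except that results of a few list genes are not reported here. A gene of a list is represented by its probe with the highest mean. Alternatives were scaling, samples in the fit, number of tests, spread estimate, array weights, a filter on dim probes, single samples left out, hypoxia P8 samples 4 and 5 left out together, and the sample number as a block.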

Additional observations from a re-analysis of the deposited data

Results flagged for a closer look

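The P8 hypoxia difference exceeded that at P30 in 3 genes, by the test of the difference itself: by 3.55 in Ahsp (SE 0.63, limma adjusted p = 0.00843), by 1.75 in Slc25a39 (SE 0.41, limma adjusted p = 0.0419) and by 4.61 in Rsad2 (SE 0.80, limma adjusted p = 0.00713). In Aqp1 it was smaller by the signed difference of -3.68 (SE 0.64, limma adjusted p = 0.00713), with the hypoxia difference negative at P8. The larger differences are 1 of the 3 main genes and 2 of the 26 list genes, and the smaller is 1 of the 26. Of all probes 4.34% passed with the larger value at P8 and 0.829% with the smaller. Ahsp, Slc25a39, Rsad2 and Aqp1 were named through the authors' list for P8, which favours a difference at P8.

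In normoxia P30, sample 5 stood apart from the other 3 samples in Alad, at 10.86 log2 units, and in Car2, at 8.50. The gap to the nearest sample was 0.842 of the group's range in each, against a critical value of 0.829 for 4 samples. These were 2 of 108 such tests, and chance passes about 1 in 20.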

How the results depend on the processing

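The P8 difference of Ahsp and Slc4a1, the excess of the P8 over the P30 difference of Ahsp, and the P30 against P8 difference of all 3 genes in hypoxia kept direction and call under every alternative run, except that Ahsp had no value without dim probes, since its mean lies below that limit. The P30 difference of Ahsp turned positive with centred arrays (0.13) and array weights (0.092). Leaving out single samples gave -0.21 to 0.16 for Ahsp, -0.074 to 0.39 for Slc4a1 and -1.25 to -0.24 for Alas2 at P30.

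Adjusting over the table alone brought past the threshold the normoxic age difference of Ahsp (-1.19, limma adjusted p = 0.0369), the excess at P8 of Slc4a1 (1.99, limma adjusted p = 0.0142) and of Alas2 (3.08, limma adjusted p = 0.0403), and the P8 difference of Alas2 (2.17, limma adjusted p = 0.0277). The excess of Slc4a1 also passed with array weights (1.94) and without hypoxia P8 samples 4 and 5 (2.35). The normoxic age difference of Alas2 was lost with only its groups in the fit (-3.25, limma adjusted p = 0.068). Without single samples, the P8 difference of Alas2 was 1.48 to 3.10, the excess at P8 was 1.55 to 2.33 for Slc4a1 and 2.39 to 4.01 for Alas2, and the normoxic age difference of Alas2 was -3.94 to -2.32. Alas2 minus Slc4a1 at P8 was -0.66 to 0.67 and Ahsp minus Slc4a1 at P30 was -0.34 to 0.07. The cause of these changes was not tested.

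Of the 26 list genes, the count higher at P8, 13, was 8 with centred arrays, 7 with only the groups compared, 21 adjusted over the table alone, 8 without dim probes and 7 to 14 without single samples. Epb42, Rhag, Myb and Ypel4 have no value in the fit without dim probes, since their means lie below that limit. Epb42 and Rhag were among the 13, so part of the fall to 8 is genes that were no longer tested. The count lower at P8, 2, was 3 with centred arrays, 3 over the table alone, 1 with only the groups compared, 1 without hypoxia P8 samples 4 and 5, and 1 to 2 without single samples. The count with a larger P8 effect, 2, was 1 with quantile normalization, 1 with centred arrays, 11 over the table alone, 6 with array weights, 1 without dim probes, 6 without hypoxia P8 samples 4 and 5 and 1 to 5 without single samples, and that with a smaller one, 1, was 2 with centred arrays. In normoxia, the count higher at P30, 3, was 5 over the table alone, and the count lower, 3, was 5 with quantile normalization, 1 with only the groups compared, 7 over the table alone, 5 with array weights and 1 to 5 without single samples. In hypoxia the count higher at P30, 3, was 5 with quantile normalization and 5 with centred arrays. Calls among all probes moved with the setting too. At P8 they were 976 as deposited (73.2% higher in hypoxia), 881 with quantile normalization (38.6% higher) and 1152 with centred arrays (28% higher). Adjusting over the table alone eases the threshold for every probe. Shares of all probes under the other settings are not given here, so these counts are not read as results about red cell genes.

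With the sample number as a replicate block at P30, Ahsp differed by -0.18, Slc4a1 by 0.13 and Alas2 by -1.14, none past the threshold, with 0 list genes called. Deviations of samples with the same number correlated at -0.168 to 0.074 over 4 pairs, and those with different numbers at -0.229 to 0.25 over 16 pairs. The labels do not tell what the number means, so whether it pairs samples cannot be told from these values.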
